A study of Homo sapiens with 9 samples.

Results

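The genes described here are the ZNF-numbered zinc finger genes of human chromosome 19, measured by RNA sequencing in H1299 cells, an established line from a human non-small cell lung tumour. Members were the protein-coding genes of chromosome 19 in GENCODE release 29 whose symbol is ZNF followed by a number, and 249 of the 58721 genes in the files met this rule. Of these, 229 had enough counts to be tested. The other 20 could not be tested: 6 had no count in any library and 14 had at least 1, with no more than 11 counts in a library.

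The study set H1299 cells treated with 0.1 mM melatonin, the hormone that signals darkness, and H1299 cells given siCLOCK, a small interfering RNA against the circadian transcription factor CLOCK, against H1299 cells in serum free medium as the control, with 3 libraries in each group. The labels name neither a non-targeting siRNA nor a vehicle control, give no treatment time, and do not say whether serum free medium was also used for the treated cells. Whether replicates came from separate cultures is not stated, so p-values here reflect the spread among these libraries, which may be technical. All samples come from 1 cell line.

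C2H2 zinc finger proteins bind DNA through repeated short finger units, each holding a zinc ion between a pair of cysteines and a pair of histidines. Most of the chromosome 19 genes arose by tandem duplication in primate and mammalian lineages and also carry a KRAB domain, which recruits the co-repressor TRIM28 and, through it, the histone methyltransferase SETDB1 and heterochromatin proteins. They are best known for silencing transposable elements. In the coding sequences of GENCODE release 29, translated by script, 246 members held at least 1 finger motif, with a median of 12 and a range of 1 to 36, and 209 held a KRAB motif.

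Each library held between 15384539 (melatonin replicate 1) and 19192962 (siCLOCK replicate 2) reads counted to genes. The libraries fell into 2 sets by their share of unmapped reads, and no label or header names a batch or run behind them. Unmapped reads made up 2.24% to 2.34% of reads in the 3 melatonin libraries and the library labelled siCLOCK replicate 3, against 1.22% to 1.36% in siCLOCK replicates 1 and 2 and the controls. Members took 0.292% to 0.303% of gene counts in the first of these sets and 0.257% to 0.282% in the second. CLOCK itself stood at 51.5%, 78.7% and 93.8% of the control mean in siCLOCK replicates 1, 2 and 3, so the library labelled siCLOCK replicate 3 lacks most of the reduction that its label implies. CLOCK did not pass in siCLOCK against control (log2 fold change -0.42, SE 0.14, adjusted p = 0.340). It passed with a term for the set (-0.62, adjusted p = 0.0185), which in this comparison leaves siCLOCK replicates 1 and 2 against the controls. Whether that library is mislabelled was not tested; if it were, the siCLOCK values and the set term would both mean something else. No melatonin library shares a set with a control, and a term for the set rests on the library labelled siCLOCK replicate 3 against siCLOCK replicates 1 and 2. With that term, melatonin against siCLOCK sets the melatonin libraries against the library labelled siCLOCK replicate 3 alone, so only effect sizes are given there. Values with that term, or without that library, are given for most counts and block medians and for the members that passed in melatonin against control. Few of the members named in the other comparisons carry them. Among cell checks, KRT8 (130.3 to 182 CPM) and VIM (1466 to 2018 CPM) were high in every library, where CPM is the read count of a gene scaled to library size. The 10 markers of leukocytes, endothelium, fibroblasts and erythroid cells summed to 4.32 to 5.99 CPM in melatonin, 5.57 to 7.29 CPM in siCLOCK and 5.83 to 6.40 CPM in control libraries, and CD3E and HBB were at 0 in all 9.

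**Figure D1:**
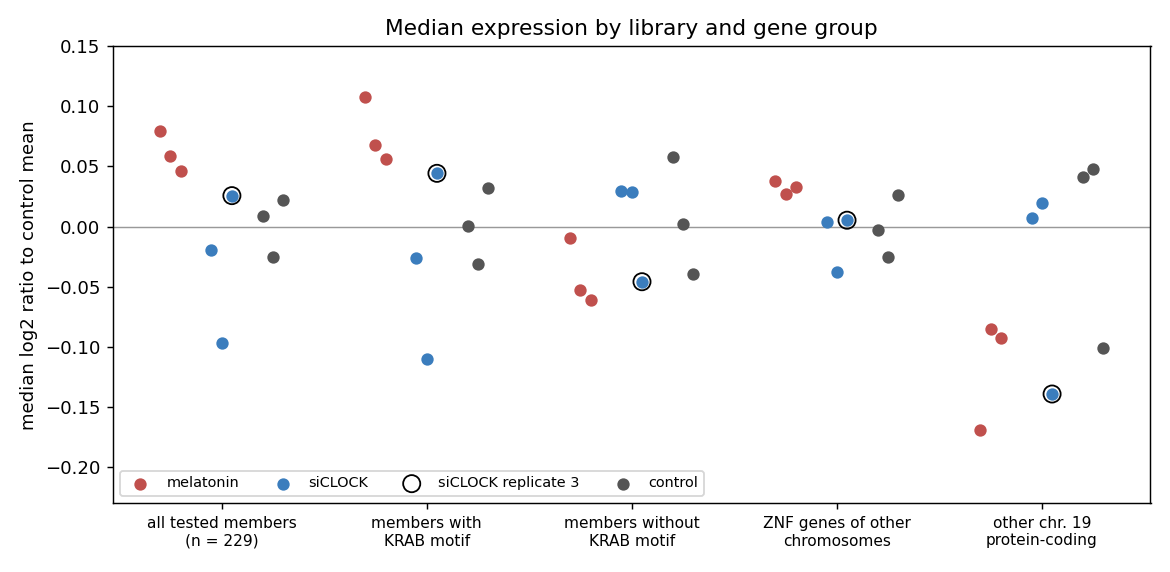
Median expression of gene groups in each library, as the log2 ratio to the control mean (vertical axis, with 0.5 CPM added), for all 229 tested members, members with and without a KRAB motif, ZNF genes of other chromosomes and other protein-coding genes of chromosome 19; each point is 1 library and the ring marks the library labelled siCLOCK replicate 3. Members lay at 0.05 to 0.08 in melatonin and at -0.03 to 0.02 in control. The other protein-coding genes of chromosome 19 lay at -0.17 to -0.09 in melatonin and at -0.10 to 0.05 in control, which overlap.

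Several sequences recur in the results. ZNF780A and ZNF780B are neighbours with no other member between them, their annotated starts lie 34.7 kb apart on the minus strand, and both were higher with melatonin. Their promoters (250 bases before to 50 bases after the start, from RefSeq on GRCh38.p14, minus strand) lie at chr19:40090894-40091193 and chr19:40056182-40056481. They are shown because the genes moved together. In a global alignment 244 of 312 columns were identical (78.2%), and the capitals mark the longest run the 2 share, of 22 bases.
ZNF780A: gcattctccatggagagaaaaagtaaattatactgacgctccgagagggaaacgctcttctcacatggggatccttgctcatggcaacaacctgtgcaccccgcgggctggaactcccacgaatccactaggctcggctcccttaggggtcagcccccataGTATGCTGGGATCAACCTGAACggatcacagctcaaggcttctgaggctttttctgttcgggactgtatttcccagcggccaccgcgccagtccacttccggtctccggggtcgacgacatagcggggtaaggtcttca
ZNF780B: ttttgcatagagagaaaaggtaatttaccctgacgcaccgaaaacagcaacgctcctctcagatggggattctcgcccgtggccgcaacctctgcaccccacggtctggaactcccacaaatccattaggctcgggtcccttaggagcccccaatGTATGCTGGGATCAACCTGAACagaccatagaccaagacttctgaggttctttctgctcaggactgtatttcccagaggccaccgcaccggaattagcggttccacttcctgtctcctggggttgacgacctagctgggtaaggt

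CLOCK and its partner ARNTL bind the E-box CACGTG. This motif, which reads the same on both strands, was found in 9 of the 217 members with a promoter in the RefSeq table (4.15%), against 2030 of all 27305 promoters (7.43%). The 9 were ZNF507, ZNF565, ZNF296, ZNF577, ZNF460, ZNF587B, ZNF587, ZNF814 and ZNF324. A group of 3 neighbours near the end of the chromosome is shown because it holds ZNF587B, the E-box member that passed in melatonin against control. The motif, in capitals, starts 50, 45 and 42 bases before the gene starts of ZNF587B, ZNF814 and ZNF587, within chr19:57830227-57830276 (plus strand), chr19:57889055-57889104 (minus strand) and chr19:57849795-57849844 (plus strand) on GRCh38.p14. The stretches of ZNF587B and ZNF814 differ at 1 position.
ZNF587B: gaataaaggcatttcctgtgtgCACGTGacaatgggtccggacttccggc
ZNF814: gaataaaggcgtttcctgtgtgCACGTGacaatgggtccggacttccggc
ZNF587: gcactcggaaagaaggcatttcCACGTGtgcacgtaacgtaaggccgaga

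Near-identical members limit what counts of single genes can show. Of the 249 members, 21 shared at least 1 window of 150 exon bases with a gene elsewhere, and 6 shared over 5% of their windows, led by ZNF98 (15.4%), ZNF417 (12.4%) and ZNF492 (11.9%). ZNF492, which was lower with melatonin, shares most with ZNF98, which had at most 1 count in a library. The same finger unit of 84 bases stands letter for letter in ZNF492 at chr19:22664096-22664179 (plus strand) and in ZNF98 at chr19:22392602-22392685 (minus strand) on GRCh38. Capitals mark the codons of its cysteines and histidines.
ZNF492 and ZNF98: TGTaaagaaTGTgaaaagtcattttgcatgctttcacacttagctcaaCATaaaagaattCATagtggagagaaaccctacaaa

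Members were expressed at low levels. Tested members had a median of 9.84 CPM in control against 17.4 CPM over all genes tested, and per kb of exon a median of 1.75 against 3.63 CPM. In control 173 of the 229 exceeded 5 CPM and 12 exceeded 30 CPM. Per kb, members without a KRAB motif had a higher median level (3.23 CPM, 37 genes) than members with it (1.66 CPM), and 5 of the 8 members with the highest level lacked the motif. The highest was ZNF146, a protein built of fingers alone, at 36.9 ± 1.62 CPM per kb in control (SD, n = 3). It took 5.42% of the members' summed control CPM. ZNF581 followed at 18.8 ± 3.48, ZNF302 at 11.3 ± 0.764, ZNF580 at 10.6 ± 1.08, ZNF266 at 8.31 ± 0.531, ZNF260 at 8.17 ± 0.0799, ZNF787 at 7.97 ± 0.643 and ZNF317 at 7.75 ± 0.560 CPM per kb. ZNF146 and ZNF581 stood apart from the genes ranked after them by more than these SDs. ZNF302 and ZNF580 overlapped within 1 SD, and so did ZNF266, ZNF260, ZNF787 and ZNF317 from each rank to the next. ZNF580 and ZNF581 overlap each other and CCDC106 on the chromosome. Reads over more than 1 of these genes count for none of them, so their levels per kb may be understated.

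The first comparison asked how melatonin changed these genes relative to serum free control. A small number of members changed, by modest amounts: 13 were higher (5.68%) and 11 lower (4.80%) with melatonin at an adjusted p under 0.05 in edgeR's quasi-likelihood test, while over all genes tested 11.0% were higher and 12.1% lower. Both shares were below those backgrounds. No member's log2 fold change reached 1 in size, and the 24 that passed had log2 fold changes of 0.24 to 0.59 in size. As a family the members had a median log2 fold change of 0.07 against 0.01 over all genes tested, and 147 of 229 had a positive value. The melatonin and control libraries did not overlap for 59 members that lay higher (25.8%, background 21.9%) and 24 that lay lower (10.5%, background 21.4%).

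These calls moved with the set. With a set term no member was higher and 5 were lower (background 1.72% and 2.96%), 20 members had an unadjusted p under 0.05, and the family median was -0.04. Without the library labelled siCLOCK replicate 3 the model called 21 higher and 16 lower (background 12.4% and 14.6%). Without siCLOCK replicate 1 it called 21 and 15 (background 13.2% and 14.5%). Leaving out a control or melatonin library lowered the counts: to 7 higher and 7 lower without control replicate 1, 8 and 6 without control replicate 2, 12 and 7 without control replicate 3, 6 and 4 without melatonin replicate 1, 7 and 7 without melatonin replicate 2, and 9 and 3 without melatonin replicate 3. Over all genes tested those 6 fits called 6.36% to 9.18% higher and 8.2% to 10.7% lower. Of the 13 higher members, 10 stood higher in the library labelled siCLOCK replicate 3 than in siCLOCK replicates 1 and 2, and 8 stood there above every control. Of the 11 lower members, 6 stood higher in that library than in siCLOCK replicates 1 and 2. Given that term, 12 of the 13 kept a positive value, with a median of 0.16 in place of 0.36, and all 11 kept a negative value, with a median of -0.57 in place of -0.36.

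**Figure D2:**
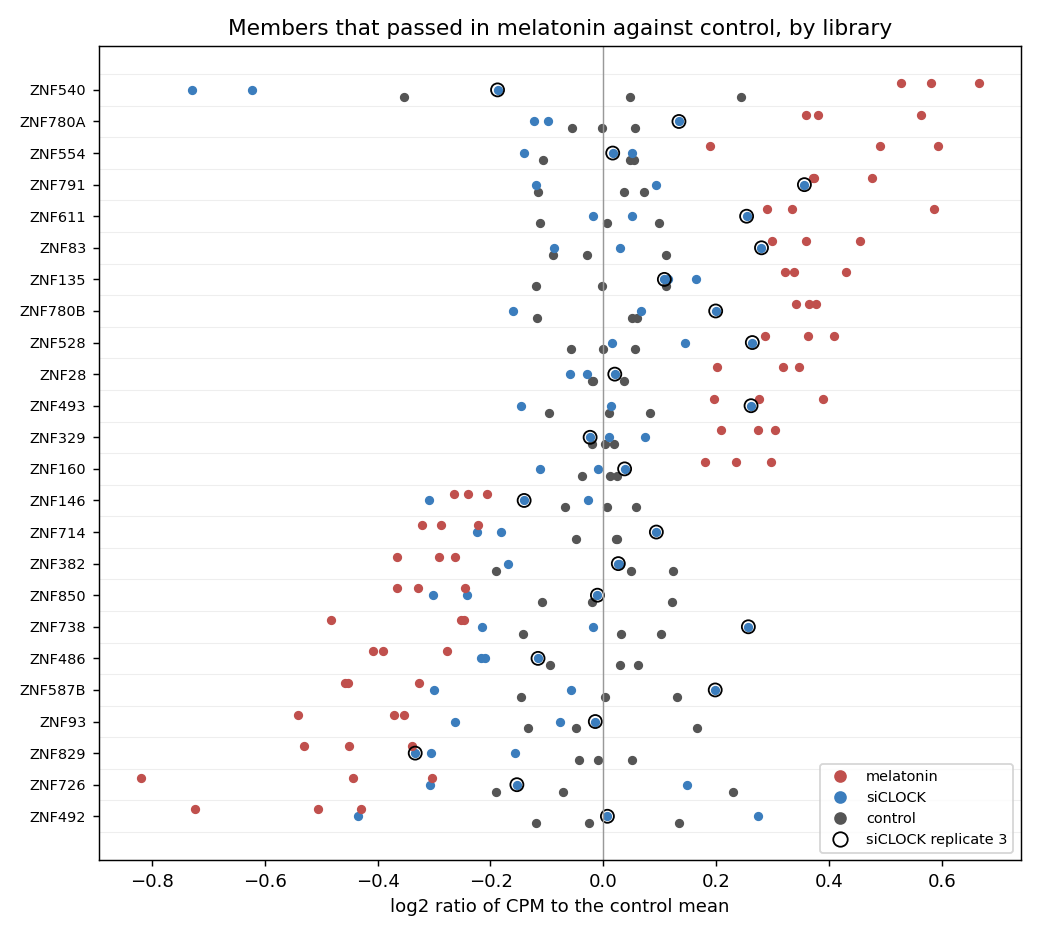
The 24 members that passed in melatonin against control, with each of the 9 libraries as a point at its log2 ratio of CPM to the control mean (horizontal axis); the ring marks the library labelled siCLOCK replicate 3. Melatonin and control libraries did not overlap for any of the 13 higher or 11 lower members, and for ZNF791 and ZNF83 the ringed library lies nearer to melatonin than to control.

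Among the higher members, 6 passed whichever library was left out: ZNF780A, ZNF780B, ZNF791, ZNF83, ZNF528 and ZNF135. ZNF780A (ENSG00000197782.14, GRCh38 chromosome 19, 40069152 to 40090938), a KRAB gene with 17 fingers, had 32.3, 28.5 and 28.1 CPM in melatonin, 20.1 and 20.5 CPM in siCLOCK replicates 1 and 2 with 24 CPM in that labelled siCLOCK replicate 3, and 21.9, 21.1 and 22.8 CPM in control (log2 fold change 0.43, SE 0.09, adjusted p = 0.00185). Every melatonin library lay above every other library. Its neighbour ZNF780B (40028260 to 40056209), with 21 fingers, had 23.1, 22.9 and 22.6 CPM in melatonin, 18.7, 16 and 20.5 CPM in siCLOCK replicates 1 to 3 and 18.5, 18.6 and 16.4 CPM in control (log2 fold change 0.36, SE 0.09, adjusted p = 0.0102). Both promoters are printed above. Under the set term the log2 fold changes were 0.19 for ZNF780A and 0.12 for ZNF780B, and neither passed.

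ZNF791 (12610918 to 12633840), at the end of the block around 12 Mb, had 44.6, 41.6 and 41.5 CPM in melatonin, 34.2, 29.6 and 41.1 CPM in siCLOCK replicates 1 to 3 and 33.8, 32.9 and 29.6 CPM in control (log2 fold change 0.41, SE 0.10, adjusted p = 0.00572). ZNF83 (52594060 to 52690496), 1 of the most abundant members, had 56.9, 54.6 and 60.7 CPM in melatonin, 41.7, 45.2 and 53.8 CPM in siCLOCK and 47.9, 43.5 and 41.7 CPM in control (log2 fold change 0.37, SE 0.09, adjusted p = 0.00505). For both genes the library labelled siCLOCK replicate 3 lay above siCLOCK replicates 1 and 2 and above every control, and with the set term the log2 fold changes were 0.04 and 0.06. ZNF528 (52397849 to 52418412) had 24.5, 25.8 and 26.7 CPM in melatonin, 22.2, 20.3 and 24.1 CPM in siCLOCK and 19.3, 20.9 and 20.1 CPM in control (log2 fold change 0.35, SE 0.09, adjusted p = 0.00578). ZNF135 (58059239 to 58086310) had 17.8, 16.5 and 16.7 CPM in melatonin, 14.3, 14.8 and 14.2 CPM in siCLOCK and 12.2, 13.2 and 14.2 CPM in control (log2 fold change 0.36, SE 0.09, adjusted p = 0.00705). In ZNF135 the library labelled siCLOCK replicate 3 lay with the other siCLOCK libraries, and the set term left the log2 fold change at 0.39 (adjusted p = 0.185). ZNF135 shares 32.6% of its exon bases with ZSCAN18, a zinc finger gene on the same stretch. Reads over both genes count for neither, so the counts of ZNF135 come from the rest of its exons.

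The other 7 higher members depended on single libraries. ZNF540 (37551406 to 37614097) had the largest rise of all 13, with 3.22, 3.10 and 3.41 CPM in melatonin, 1.30, 1.40 and 1.89 CPM in siCLOCK and 2.55, 2.22 and 1.68 CPM in control (log2 fold change 0.59, SE 0.19, adjusted p = 0.0329), and was among the least abundant. Its call was lost without control replicate 2, control replicate 3, melatonin replicate 1, melatonin replicate 2 or melatonin replicate 3 (adjusted p up to 0.129). ZNF554 had 7.82, 7.28 and 5.91 CPM in melatonin and 5.36, 4.82 and 5.39 CPM in control (log2 fold change 0.43, SE 0.13, adjusted p = 0.0270), a call lost without control replicate 1, control replicate 2, melatonin replicate 1 or melatonin replicate 2 (adjusted p up to 0.133). ZNF611, a KRAB repressor known to bind SVA retrotransposons, had 9.65, 7.85 and 8.10 CPM in melatonin and 5.94, 6.88 and 6.45 CPM in control (log2 fold change 0.40, SE 0.12, adjusted p = 0.0249); that call was lost without control replicate 1, control replicate 3, melatonin replicate 1 or melatonin replicate 3 (adjusted p up to 0.140). ZNF28 had 15.3, 15 and 13.9 CPM in melatonin and 12.4, 11.9 and 11.9 CPM in control (log2 fold change 0.29, SE 0.09, adjusted p = 0.0267), and did not pass without control replicate 1, control replicate 2, control replicate 3, melatonin replicate 1 or melatonin replicate 2 (adjusted p up to 0.110). ZNF493, ZNF329 and ZNF160 were the remaining 3, named after their values were seen, at log2 fold changes of 0.29, 0.26 and 0.24. Each lost its call without 5 or 6 of the libraries: ZNF493 without control replicate 1, control replicate 2, melatonin replicate 1, melatonin replicate 2 or melatonin replicate 3, ZNF329 without control replicate 1, control replicate 2, melatonin replicate 1, melatonin replicate 2 or melatonin replicate 3, and ZNF160 without control replicate 1, control replicate 2, control replicate 3, melatonin replicate 1, melatonin replicate 2 or melatonin replicate 3, with adjusted p up to 0.185, 0.112 and 0.155. None of these 7 passed with the set term, where the log2 fold change was 0.10 for ZNF540, 0.37 for ZNF554, 0.16 for ZNF611, 0.22 for ZNF28, -0.04 for ZNF493, 0.33 for ZNF329 and 0.14 for ZNF160.

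Among the lower members, ZNF829, ZNF93 and ZNF486 passed whichever library was left out. ZNF829 (36888124 to 36916291) had 12, 13 and 11.4 CPM in melatonin, 14.8, 13.3 and 13.1 CPM in siCLOCK and 16.3, 16 and 17.1 CPM in control (log2 fold change -0.44, SE 0.09, adjusted p = 0.00238). All siCLOCK libraries also lay below all controls. ZNF93 (19900913 to 19963464), a KRAB repressor of LINE-1 retrotransposons in primates, had 12.9, 14.5 and 14.7 CPM in melatonin, 17.7, 15.6 and 18.5 CPM in siCLOCK and 18.1, 17 and 21 CPM in control (log2 fold change -0.41, SE 0.10, adjusted p = 0.00643). Here every melatonin library lay below every other library. ZNF486 (20167228 to 20200490) had 13.2, 12.2 and 12 CPM in melatonin, 13.7, 13.8 and 14.7 CPM in siCLOCK and 15, 16.3 and 16.7 CPM in control (log2 fold change -0.36, SE 0.09, adjusted p = 0.00783), with siCLOCK between melatonin and control. Their values under the set term were -0.33, -0.57 and -0.46, with adjusted p of 0.292, 0.0605 and 0.111.

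The member with the highest level, ZNF146, was also lower. It had 127, 132 and 129 CPM in melatonin, 150.1, 123 and 139 CPM in siCLOCK and 159, 146 and 154 CPM in control (log2 fold change -0.24, SE 0.07, adjusted p = 0.0209), a call lost without control replicate 1, melatonin replicate 1 or melatonin replicate 3 (adjusted p up to 0.0901). It shares 10.8% of its exon bases with ZNF565. The set term left the value at -0.26 (adjusted p = 0.256).

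ZNF738, ZNF714 and ZNF587B were lower both without and with the set term. ZNF714 had 22.3, 20.8 and 21.3 CPM in melatonin, 22.2 and 22.9 CPM in siCLOCK replicates 1 and 2 with 27.7 CPM in that labelled siCLOCK replicate 3, and 25.1, 26.4 and 26.4 CPM in control (log2 fold change -0.28, SE 0.09, adjusted p = 0.0327; the set term gave -0.57 at an adjusted p = 0.0136). ZNF738, a KRAB gene in which no finger motif was found, had 15.5, 13.2 and 15.5 CPM in melatonin, 18.2 and 15.9 CPM in siCLOCK replicates 1 and 2 with 22 CPM in that labelled siCLOCK replicate 3, and 16.7, 19.7 and 18.8 CPM in control (log2 fold change -0.32, SE 0.12, adjusted p = 0.0484; the set term gave -0.70 at an adjusted p = 0.0172). In both genes the library labelled siCLOCK replicate 3 had the highest value of all 9, so the set term widened the difference. ZNF587B, whose E-box stretch is shown above, had 4.98, 4.96 and 5.43 CPM in melatonin, 6.55, 5.53 and 7.82 CPM in siCLOCK and 6.16, 6.83 and 7.46 CPM in control (log2 fold change -0.41, SE 0.14, adjusted p = 0.0440; the set term gave -0.78 at an adjusted p = 0.0456). It shares 14.6% of its exon bases with other genes, ZNF586 among them. Leaving out single libraries ended all 3 calls: ZNF714 without control replicate 1, control replicate 2, control replicate 3, melatonin replicate 1, melatonin replicate 2 or melatonin replicate 3 (adjusted p up to 0.117), and ZNF738 and ZNF587B without control replicate 2, control replicate 3, melatonin replicate 1, melatonin replicate 2 or melatonin replicate 3 (up to 0.203 and 0.138). The other 2 members that passed as lower with the set term, ZNF121 (-0.63, adjusted p = 0.0484) and ZNF730 (-0.93, adjusted p = 0.0264), had not passed without it.

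The remaining lower members were ZNF492, ZNF726, ZNF850 and ZNF382. ZNF492 had 3.53, 3.72 and 3.04 CPM in melatonin, 6.06, 3.71 and 5.04 CPM in siCLOCK and 4.62, 4.92 and 5.50 CPM in control (log2 fold change -0.55, SE 0.17, adjusted p = 0.0293). ZNF726 had 2.71, 3.87 and 3.52 CPM in melatonin and 4.19, 4.55 and 5.61 CPM in control (log2 fold change -0.49, SE 0.17, adjusted p = 0.0478). Both calls were lost without control replicate 2, control replicate 3, melatonin replicate 1 or melatonin replicate 3 (adjusted p up to 0.120 and 0.185), and both genes were among the less abundant members that passed. ZNF850, with 29 fingers, had 11.3, 10.4 and 10.7 CPM in melatonin and 14.5, 13.2 and 12.4 CPM in control (log2 fold change -0.31, SE 0.10, adjusted p = 0.0366). ZNF382, a KRAB gene described as a tumour suppressor silenced by methylation in several carcinomas, had 13.2, 13.4 and 12.5 CPM in melatonin and 17.6, 16.7 and 14.1 CPM in control (log2 fold change -0.31, SE 0.10, adjusted p = 0.0336). ZNF850 and ZNF382 did not pass without control replicate 1, control replicate 2, melatonin replicate 1, melatonin replicate 2 or melatonin replicate 3 (adjusted p up to 0.155 and 0.150). The set term gave log2 fold changes of -0.59 for ZNF492, -0.40 for ZNF726, -0.58 for ZNF850 and -0.40 for ZNF382, and none of the 4 passed with it.

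**Figure D3:**
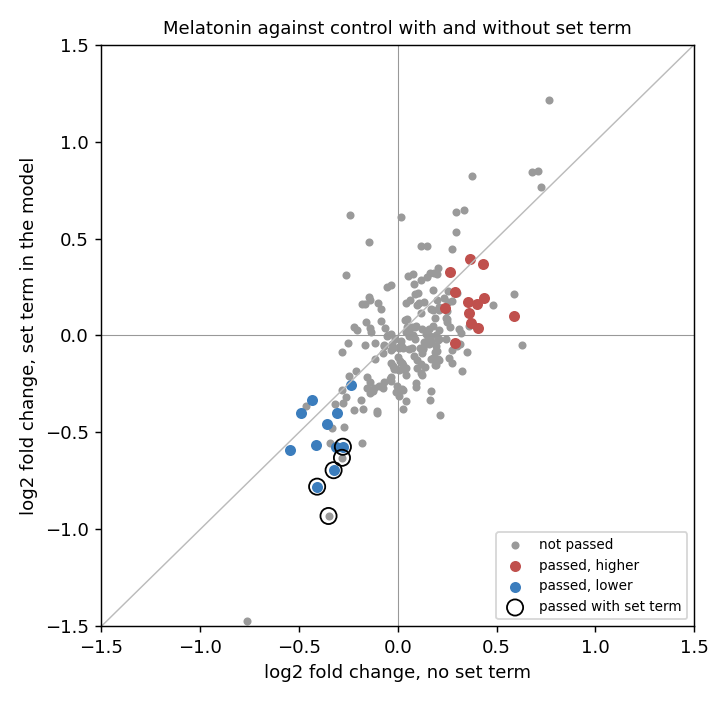
Log2 fold change of the 229 tested members in melatonin against control without a set term (horizontal axis) and with it (vertical axis), coloured by the call without the term; open rings mark the 5 members that passed with the term. Except for ZNF135 and ZNF329, the 13 higher members lie nearer 0 on the vertical axis than on the horizontal one, while the 11 lower members lie at or below the diagonal for the most part.

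The following members with well-known roles, chosen after their values were seen, did not pass, unlike ZNF93, ZNF611 and ZNF382 above. ZNF274, which brings SETDB1 to the 3' ends of zinc finger genes, had 43.1, 44.3 and 42.9 CPM in melatonin and 39.9, 42.6 and 43.6 CPM in control (log2 fold change 0.05, SE 0.07, adjusted p = 0.672). ZNF91, which represses SVA elements, had 28.9, 27.3 and 26.2 CPM in melatonin and 23.8, 22.9 and 25.4 CPM in control (log2 fold change 0.19, SE 0.09, adjusted p = 0.115). The groups did not overlap for ZNF91, and with the set term its log2 fold change was 0.00. ZNF417 and ZNF587, near-identical repressors of HERVK elements, had log2 fold changes of -0.01 (SE 0.13) and 0.17 (SE 0.11). ZNF473, a component of histone mRNA processing, had 18.8, 16.8 and 18.9 CPM in melatonin and 19.7, 21.8 and 21.4 CPM in control (log2 fold change -0.21, SE 0.09, adjusted p = 0.114). ZNF331, an imprinted gene, had a log2 fold change of -0.07 (SE 0.09).

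By sequence class the medians differed, while no class had a higher share of calls than all genes tested (11.0% higher, 12.1% lower). Members with a KRAB motif had a median log2 fold change of 0.09, with 11 of 192 higher and 8 lower, while members without one had a median of -0.08, with 2 of 37 higher and 3 lower. By library, the KRAB members' median ratio to the control mean was 0.11, 0.07 and 0.06 in melatonin, -0.03, -0.11 and 0.04 in siCLOCK and 0.00, -0.03 and 0.03 in control. For members without the motif it was -0.01, -0.05 and -0.06 in melatonin, 0.03, 0.03 and -0.05 in siCLOCK and 0.06, 0.00 and -0.04 in control, and the melatonin and control libraries overlapped. Members with at least 12 fingers had a median of 0.12 (12 of 127 higher, 9.45%, and 6 lower) and members with 1 to 11 fingers of 0.02 (1 of 101 higher, 4 lower). Over the 229 members, which share libraries and often sequence, Spearman's rho between the number of fingers and the log2 fold change was 0.21, and -0.04 with the set term. The set term also turned the class medians to -0.05 for KRAB members and 0.08 for the others.

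Other gene groups are given beside the members, with no test of the difference. ZNF-numbered genes of other chromosomes had a median of 0.02, with 25 of 232 higher (10.8%) and 14 lower (6.03%), against 0.01 over all genes tested. The 13 tested chromosome 19 zinc finger genes with other names, such as ZFP and ZSCAN genes, had 2 higher, 2 lower and a median of -0.00. The other 752 protein-coding genes of chromosome 19 had a median of -0.12, with 34 higher (4.52%) and 176 lower (23.4%). Their library medians were -0.17, -0.09 and -0.09 in melatonin, 0.01, 0.02 and -0.14 in siCLOCK and 0.04, 0.05 and -0.10 in control, so the library labelled siCLOCK replicate 3 and control replicate 3 lay within the melatonin range. The median GC content of transcripts was 44.1% for tested members and 60.8% for these neighbours (all genes tested 48.7%); the part of base composition in these medians was not tested. The neighbours' median was 0.05 with the set term.

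By position, members form blocks, taken here as runs in which successive starts lie under 1 Mb apart. Of the 11 lower members, 10 were among the 63 tested members between ZNF101 and ZNF573, an interval chosen after the values were seen. That interval also holds 2 of the 13 higher members. Over all genes tested 12.1% were lower and 11.0% higher. The block ZNF101 to ZNF254, at 19.7 to 24.1 Mb, held 37 members, 35 with a KRAB motif. Of its 31 tested members 1 was higher (3.23%) and 6 lower (19.4%) with melatonin, with a median log2 fold change of -0.02. The 6 were ZNF93, ZNF486, ZNF714, ZNF738, ZNF492 and ZNF726. Its library medians were -0.09, 0.02 and -0.04 in melatonin, 0.01, -0.14 and 0.08 in siCLOCK and -0.03, -0.05 and 0.07 in control. The library medians of melatonin and control overlap, and with the set term the block's median was -0.16. In the block ZNF565 to ZNF573, at 36.2 to 37.8 Mb, 4 of 26 members (15.4%) were lower and 1 (3.85%) was higher. The 4 were ZNF146, ZNF382, ZNF850 and ZNF829, and the higher member was ZNF540. The block's median of 0.08 turned to -0.07 with the set term.

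The blocks ZNF175 to ZNF331 and ZNF653 to ZNF791 had the highest medians among blocks with at least 5 tested members. ZNF175 to ZNF331, at 51.6 to 53.6 Mb, had a median of 0.16 with 32 of 36 members positive, 5 higher (ZNF528, ZNF83, ZNF611, ZNF28 and ZNF160; 13.9%, against 11.0% of all genes tested) and none lower. Its library medians were 0.15, 0.12 and 0.12 in melatonin, -0.01, -0.05 and 0.15 in siCLOCK and -0.00, -0.04 and 0.04 in control. The library labelled siCLOCK replicate 3 thus stood with melatonin, and with the set term the block's median was -0.04. Summed over the block, members had 460 ± 5.09 CPM in melatonin, 412 ± 27.4 CPM in siCLOCK and 406 ± 10.03 CPM in control (SD, n = 3). ZNF653 to ZNF791, at 11.5 to 12.6 Mb, had a median of 0.20 with 16 of 21 positive and 1 higher, and its library medians were 0.17, 0.09 and 0.14 in melatonin, -0.04, -0.12 and 0.05 in siCLOCK and -0.03, -0.10 and 0.09 in control. Its median was -0.02 with the set term.

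Elsewhere few members passed. The 59 tested members of ZNF628 to ZNF446, at 55.5 to 58.5 Mb, had a median of 0.02 with 2 higher (ZNF135 and ZNF329) and 1 lower (ZNF587B), while 14 protein-coding neighbours within the block had a median of -0.12. ZNF557 to ZNF846, at 7.1 to 9.8 Mb, had no call among 14 members and a median of 0.06, against 1 higher and 7 lower of 29 neighbours with a median of -0.11. The smallest p there was that of ZNF846, at 4.04, 4.80 and 4.74 CPM in melatonin and 3.50, 3.07 and 3.20 CPM in control (log2 fold change 0.48, SE 0.18, adjusted p = 0.0554). ZNF575 to ZNF296, at 43.5 to 45.1 Mb, also had no call among 23 members and a median of 0.06; ZNF230 had the smallest p, with 5.61, 6.51 and 5.33 CPM in melatonin and 7.06, 7.73 and 7.41 CPM in control (log2 fold change -0.34, SE 0.12, adjusted p = 0.0533). The 5 members of ZNF554 to ZNF77 had a median of 0.12 and 1 higher gene, and the 5 of ZNF302 to ZNF792 a median of -0.04 and none, with the smallest p for ZNF792 (log2 fold change -0.18, SE 0.16, adjusted p = 0.439). The set term turned the medians of ZNF628 to ZNF446 to -0.02 and of ZNF575 to ZNF296 to -0.03, and gave 0.16 for ZNF557 to ZNF846, 0.37 for ZNF554 to ZNF77 and -0.22 for ZNF302 to ZNF792. Neighbouring members along the chromosome had log2 fold changes that correlated weakly, with a Spearman's rho of 0.13 over 228 pairs.

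**Figure D4:**
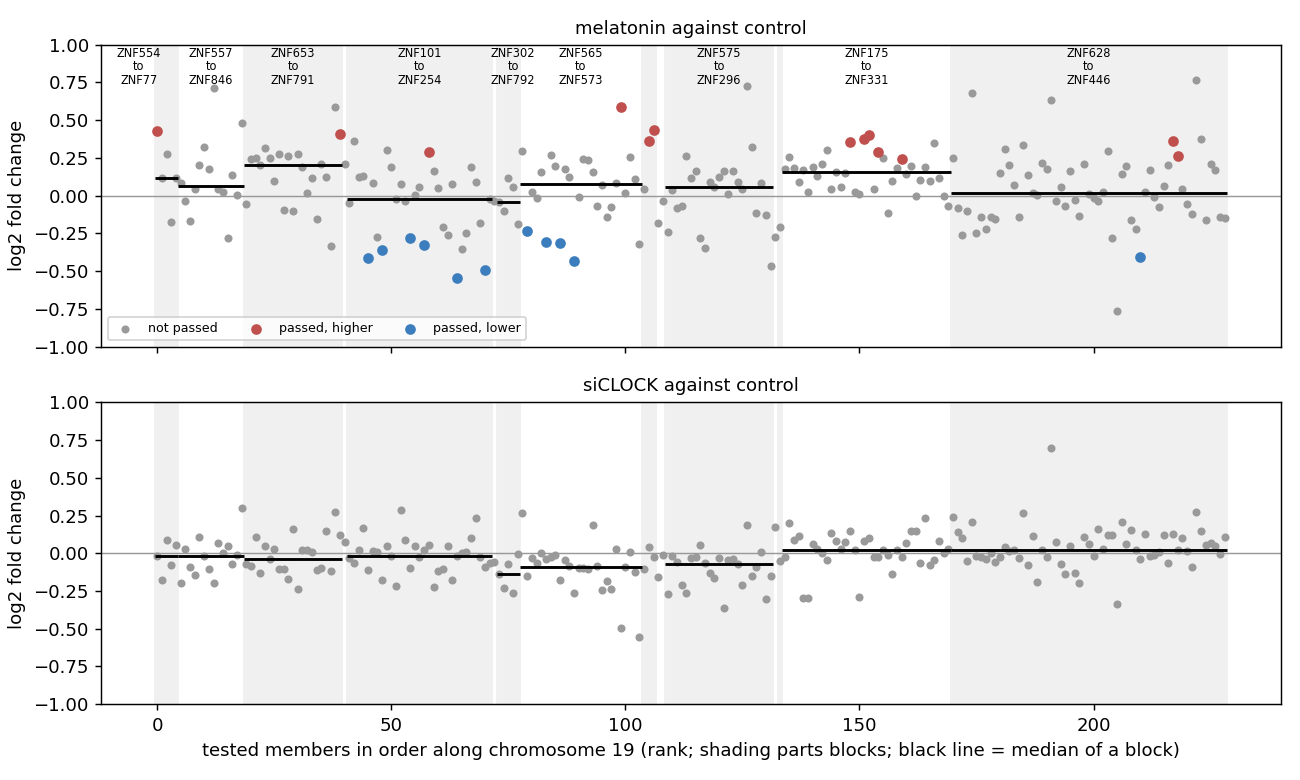
Log2 fold change (vertical axis) of the 229 tested members in their order along chromosome 19 (horizontal axis, rank), in melatonin against control (top) and siCLOCK against control (bottom); shading parts the blocks and black lines are block medians for blocks with at least 5 tested members. With melatonin 11 members were lower, and 10 of them are among the 63 tested members between ZNF101 and ZNF573. That interval was chosen after the values were seen. The block ZNF175 to ZNF331 holds 5 higher members (13.9% of those tested there). Over all genes tested 12.1% were lower and 11.0% higher with melatonin. No member passed with siCLOCK.

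The second comparison asked whether siCLOCK changed these genes, though CLOCK itself did not pass in it, as given above. No member passed in siCLOCK against control with edgeR, and none with DESeq2 or limma-voom; 15 of 229 had an unadjusted p under 0.05 in edgeR, and the smallest adjusted p was 0.303. Over all genes tested, 0.0547% were higher and 0.0669% lower in edgeR, 0.268% and 0.152% in DESeq2, and 0.0426% and 0.0487% in limma-voom. The family's median log2 fold change was -0.02 against 0.00 for all genes tested, and the library medians of the members were -0.02, -0.10 and 0.03 in siCLOCK and 0.01, -0.03 and 0.02 in control. The siCLOCK and control libraries did not overlap for 7 members that lay higher (3.06%, background 5.75%) and 12 that lay lower (5.24%, background 5.06%). The median SE of a member's log2 fold change was 0.12, and differences several times that size in single genes did not pass.

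Members with the smallest p in this comparison were chosen after their values were seen. ZNF180 had 12.7, 14.2 and 15 CPM in siCLOCK and 17.7, 16.9 and 17 CPM in control (log2 fold change -0.30, SE 0.09, adjusted p = 0.303), with no overlap between the groups. ZNF829 had 14.8, 13.3 and 13.1 CPM in siCLOCK and 16.3, 16 and 17.1 CPM in control (log2 fold change -0.26, SE 0.09, adjusted p = 0.391), also without overlap. ZNF547 had 1.19, 1.29 and 1.99 CPM in siCLOCK and 0.955, 0.953 and 0.841 CPM in control (log2 fold change 0.70, SE 0.26, adjusted p = 0.426); the library labelled siCLOCK replicate 3 held the highest of these values. In ZNF225 siCLOCK replicates 1 and 2 had 6.76 and 7.47 CPM, the library labelled siCLOCK replicate 3 had 10.02 CPM and the controls had 11.5, 10.6 and 9.14 CPM (log2 fold change -0.37, SE 0.14, adjusted p = 0.427). Once the library labelled siCLOCK replicate 3 was left out, ZNF225 was lower in siCLOCK (-0.56, adjusted p = 0.0493) and was the 1 member that passed, against a background of 0.257% lower; the family median was then -0.06. The set term too leaves siCLOCK replicates 1 and 2 against the controls, so it is much the same fit and adds no separate support. It called ZNF225 alone (-0.55, adjusted p = 0.0488, background 0.262% lower).

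The 9 members with an E-box promoter had log2 fold changes between -0.19 and 0.27 in siCLOCK against control, with a median of -0.02, the same to 2 decimals as the 194 tested members whose promoter lacked the motif. Their smallest adjusted p was 0.772. In melatonin against control they ranged from -0.47 to 0.29 in log2 fold change, and ZNF587B alone passed; without the library labelled siCLOCK replicate 3, ZNF296 was lower as well (-0.47, adjusted p = 0.0381).

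By block, ZNF565 to ZNF573 had a median of -0.09 with siCLOCK and 4 of 26 members positive, and ZNF575 to ZNF296 a median of -0.07 with 3 of 23 positive. For ZNF575 to ZNF296 the library medians were -0.08, -0.10 and -0.05 in siCLOCK and 0.08, -0.02 and -0.07 in control, which overlap. For ZNF565 to ZNF573 they were -0.05, -0.24 and -0.01 in siCLOCK and 0.07, -0.03 and -0.02 in control, so siCLOCK replicate 2 had much the lowest value. Among blocks with at least 5 tested members, ZNF302 to ZNF792 had the lowest median with siCLOCK, at -0.14 with 0 of 5 members positive. Its library medians were -0.28, -0.17 and -0.02 in siCLOCK and -0.09, 0.07 and -0.06 in control, which overlap. No median of such a block exceeded 0.03. With the set term the medians were -0.12 for ZNF565 to ZNF573, -0.10 for ZNF575 to ZNF296 and -0.20 for ZNF302 to ZNF792.

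The third comparison set the treatments against each other, and it shares its melatonin libraries with the first. Relative to siCLOCK, melatonin libraries had 17 members higher (7.42%) and 5 lower (2.18%), against 7.43% and 10.1% of all genes tested. The family median was 0.08. The libraries did not overlap for 55 members that lay higher in melatonin (24%, background 16.8%) and 15 that lay lower (6.55%, background 17.4%). With the set term this comparison rests on the library labelled siCLOCK replicate 3 alone for siCLOCK, and the family median was 0.02. Without that library the counts were 34 higher and 5 lower (background 10.2% and 12.9%). The higher count was 10 without siCLOCK replicate 2, 5 without melatonin replicate 1, 9 without melatonin replicate 2 and 10 without melatonin replicate 3. Those fits called 3.71% to 5.64% of all genes tested higher. The lower count was 2 without control replicate 1, 1 without control replicate 2, 3 without siCLOCK replicate 1, 1 without melatonin replicate 1 and 0 without melatonin replicate 2 or melatonin replicate 3. Of all genes tested, these fits called 6.18% to 9.23% lower.

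ZNF540, ZNF844, ZNF780A and ZNF404 passed whichever library was left out. ZNF540 had the largest difference of any member, at 3.22, 3.10 and 3.41 CPM in melatonin against 1.30, 1.40 and 1.89 CPM in siCLOCK (log2 fold change 1.08, SE 0.20, adjusted p = 0.00124). With the set term it stood at 0.78. Its control libraries, at 2.55, 2.22 and 1.68 CPM, lay between the treatments for the most part. ZNF844 had 16.6, 16.6 and 15.5 CPM in melatonin against 12.2, 9.94 and 11.9 CPM in siCLOCK (log2 fold change 0.51, SE 0.11, adjusted p = 0.00281). The set term gave 0.45 for ZNF844. The library labelled siCLOCK replicate 3 lay within the range of the other siCLOCK libraries for ZNF844. ZNF404 had 10.3, 10.7 and 10.1 CPM in melatonin against 6.76, 6.34 and 8.5 CPM in siCLOCK (log2 fold change 0.52, SE 0.13, adjusted p = 0.00805), and ZNF780A, with its values given above, had a log2 fold change of 0.46 (SE 0.09, adjusted p = 0.00177).

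ZNF225 and ZNF615 lost their calls only without melatonin replicate 1. ZNF225 had 12.8, 11 and 11.3 CPM in melatonin against 6.76, 7.47 and 10.02 CPM in siCLOCK (log2 fold change 0.53, SE 0.13, adjusted p = 0.0109; adjusted p = 0.0598 without that library). ZNF615 had 12, 9.87 and 10.5 CPM in melatonin against 7.36, 8.11 and 7.92 CPM in siCLOCK (log2 fold change 0.46, SE 0.11, adjusted p = 0.00770; adjusted p = 0.0547 without it). Neither had passed in melatonin against control. The remaining 7 higher members, ZNF627, ZNF440, ZNF585A, ZNF780B, ZNF83, ZNF28 and ZNF160, had log2 fold changes of 0.27 to 0.34, and each lost its call without 3 to 7 of the libraries. ZNF627 and ZNF780B did so without siCLOCK replicate 2, melatonin replicate 1, melatonin replicate 2 or melatonin replicate 3 (adjusted p up to 0.101 and 0.120), and ZNF440 without control replicate 1, control replicate 2, siCLOCK replicate 1, siCLOCK replicate 2, melatonin replicate 1, melatonin replicate 2 or melatonin replicate 3 (up to 0.191). The call of ZNF585A was lost without siCLOCK replicate 2, melatonin replicate 1 or melatonin replicate 3 (up to 0.0808), that of ZNF83 without siCLOCK replicate 1, siCLOCK replicate 2, melatonin replicate 1, melatonin replicate 2 or melatonin replicate 3 (up to 0.141), that of ZNF28 without siCLOCK replicate 1, siCLOCK replicate 2, melatonin replicate 1 or melatonin replicate 2 (up to 0.0972) and that of ZNF160 without siCLOCK replicate 2, melatonin replicate 2 or melatonin replicate 3 (up to 0.121). ZNF554, ZNF433, ZNF14 and ZNF429 were higher by 0.45, 0.43, 0.42 and 0.39 on the log2 scale, and each lost its call without 3 to 5 of the libraries, always including melatonin replicate 1, melatonin replicate 2 and siCLOCK replicate 1 (adjusted p up to 0.129, 0.166, 0.156 and 0.139).

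The 5 lower members were ZNF492, ZNF114, ZNF551, ZNF738 and ZNF93. ZNF114 had 4.79, 4.65 and 4.69 CPM in melatonin against 6.17, 6.07 and 7.03 CPM in siCLOCK (log2 fold change -0.45, SE 0.13, adjusted p = 0.0202). With the set term it stood at -0.58, against the library labelled siCLOCK replicate 3 alone, which held the highest of its siCLOCK values. ZNF551 had 11.8, 9.45 and 8.15 CPM in melatonin against 15.3, 11.7 and 11.8 CPM in siCLOCK (log2 fold change -0.41, SE 0.13, adjusted p = 0.0392), and these libraries overlapped. ZNF492, ZNF738 and ZNF93 had log2 fold changes of -0.52, -0.35 and -0.30. Every one of the 5 calls was lost without melatonin replicate 2 or melatonin replicate 3, and other single libraries ended some of them; the adjusted p reached 0.202 for ZNF492, 0.0740 for ZNF114, 0.203 for ZNF551, 0.195 for ZNF738 and 0.184 for ZNF93. Leaving out the library labelled siCLOCK replicate 3 gave ZNF492, ZNF114, ZNF738 and ZNF93 adjusted p of 0.0569, 0.0530, 0.166 and 0.106.

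KRAB zinc finger proteins act through a shared set of partners, and 32 genes of this machinery were tested: the scaffold TRIM28, SETDB1 and other histone methyltransferases, HP1 proteins, the NuRD complex, the HUSH complex, DNA methyltransferases and SUMO genes. With melatonin 2 were higher (6.25%) and 13 lower (40.6%) than in control, against 11.0% and 12.1% of all genes tested, with a median log2 fold change of -0.15. Without the library labelled siCLOCK replicate 3 the counts were 2 and 14 (background 12.4% and 14.6%). UHRF1, which guides maintenance DNA methylation, had 54.9, 51.5 and 58.6 CPM in melatonin, 78, 86.4 and 75.4 CPM in siCLOCK and 97.3, 103 and 102 CPM in control (log2 fold change -0.88, SE 0.07, adjusted p = 2.05e-07), and passed with the set term (-0.75, adjusted p = 0.000449). DNMT1, the maintenance methyltransferase, had 182, 186 and 190.4 CPM in melatonin, 273, 253 and 217 CPM in siCLOCK and 261, 277 and 269 CPM in control (log2 fold change -0.53, SE 0.07, adjusted p = 4.57e-05). Both genes are also known to rise in dividing cells. By log2 fold change, HDAC2 (-0.37), the H3K9 methyltransferase gene SUV39H1 (-0.55) and DAXX (-0.36), a histone chaperone gene, were lower, and MORC3 (0.44) was higher, as was ATF7IP (0.27), a SETDB1 partner named after its value was seen. Under the set term 2 of the 32 genes passed (background 1.72% higher and 2.96% lower), both lower: UHRF1 and CBX5, an HP1 gene chosen after its values were seen (-0.46, adjusted p = 0.0144). TRIM28 had 267, 301 and 295 CPM in melatonin, 326, 299 and 260.4 CPM in siCLOCK and 320.0, 333 and 317 CPM in control (log2 fold change -0.17, SE 0.07, adjusted p = 0.114), and SETDB1 a log2 fold change of 0.15 (adjusted p = 0.165). In siCLOCK against control none of the 32 passed with edgeR or limma-voom, while DESeq2 called UHRF1 lower (log2 fold change -0.34, adjusted p = 0.00877, against 0.0705 in edgeR); in edgeR 1 had an unadjusted p under 0.05 and the median log2 fold change was -0.03. Less RNA per cell and fewer cells of a kind cannot be told apart in these bulk libraries.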

How the data were processed

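RNA extracted with Trizol was sequenced as paired reads of 150 bases, per the labels' protocols, and aligned with STAR 2.7.9a to GRCh38/hg38, per the submitters' processing notes. The authors deposited 1 table of raw counts per gene for each of the 9 libraries, with columns for unstranded counting and for each strand, and with unmapped, multimapping and ambiguous reads in lines of their own, per the file headers and values. Reads over more than 1 gene are among the ambiguous 9.77% to 10.6% and count for no gene. Unstranded counts were used. All 58721 gene IDs matched GENCODE release 29, which gave positions, gene types, exon lengths and coding sequences. No protein table was used: finger and KRAB motifs were found by pattern in translated coding sequences, in place of the protein table first planned. Promoters came from RefSeq (GRCh38.p14).

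Counts were scaled by TMM in edgeR 4.0.16 (R 4.3.3), filtered with filterByExpr over the 3 groups, and fitted in 1 quasi-likelihood model of all 9 libraries, which shares 1 estimate of the spread (biological coefficient of variation 0.0682). P-values were adjusted by Benjamini-Hochberg over all 16441 genes tested, and genes under 0.05 passed. SEs were derived from the fold change and its F statistic. CPM values are TMM-scaled, and library medians are medians of log2 ratios to the control mean with 0.5 CPM added. The model was tested on simulated data. Total counts per library set the precision: tested members had 3 to 3000 counts in a library, with a median of 181.

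Alternatives were DESeq2 1.42.0 without independent filtering, limma-voom (limma 3.58.1), scaling by RLE, leaving out the filter or asking for 1 CPM in 3 libraries, counts of 1 strand, a replicate block, a term for the 2 sets of libraries parted at 1.8% unmapped reads, each library left out in turn, and block gaps of 0.5 and 2 Mb. Same-numbered libraries did not correlate beyond the range of other pairs, which cannot exclude a pairing. Named members are the 8 with the highest level per kb in control, up to 10 rises and 10 falls per comparison among those that passed with at least 1 CPM, the smallest p per block of at least 5 tested members, up to 6 co-repressor genes with the smallest p, and CLOCK; other names are marked as chosen after their values were seen or stand in counts. The members and lists were chosen with earlier results of these data known.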

Additional observations from a re-analysis of the deposited data

How the results depend on the processing

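The direction of the family median held under DESeq2, limma-voom, RLE scaling, both other filters, counts of 1 strand and every left-out library in melatonin against control (0.061 to 0.084 with 1 library left out) and in melatonin against siCLOCK (0.049 to 0.107), while in siCLOCK against control it ran from -0.059 to 0.008 with 1 library left out. With the set term the medians were -0.038 in melatonin against control and 0.017 in melatonin against siCLOCK. With 1 library left out, 6 to 21 members were higher and 3 to 16 lower in melatonin against control (6.36% to 13.2% and 8.2% to 14.6% over all genes tested). In melatonin against siCLOCK 5 to 34 were higher and 0 to 7 lower (3.71% to 10.2% and 6.18% to 12.9%). In siCLOCK against control 0 were higher and 0 to 1 lower (0.00598% to 0.412% and 0.00598% to 0.257%). In melatonin against control DESeq2 called 6 higher and 6 lower (8.92% and 11.0% over all genes tested), and counts of 1 strand called 3 lower (10.5%). The set term left 0 higher and 5 lower there (1.72% and 2.96%). In siCLOCK against control the set term called 1 lower (0.262%). In melatonin against siCLOCK counts of 1 strand called 8 higher and 2 lower (5.17% and 8.08%). DESeq2 and limma-voom each called 2 lower in that comparison (9.22% and 9.72%). Counts of 1 strand hold fewer reads by construction; the cause of the other changes was not tested.

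Among members named for their level that had not passed, the sign of melatonin against control turned for ZNF581 (0.040) and ZNF787 (0.046) with the set term, for ZNF581 (0.013), ZNF302 (0.016) and ZNF266 (-0.0036) without control replicate 1, and for ZNF260 (0.0068) without melatonin replicate 2. With 1 library left out, log2 fold changes ran from -0.25 to 0.013 for ZNF581, -0.070 to 0.016 for ZNF302, -0.0036 to 0.087 for ZNF266 and -0.045 to 0.0068 for ZNF260. Deviations from the group means correlated at -0.092 to 0.063 between same-numbered libraries and at -0.12 to 0.13 between the other pairs. Each mean rests on 3 libraries and siCLOCK holds libraries of both sets, so this check cannot exclude a pairing. With the replicate block 13 members were higher and 11 lower in melatonin against control (10.1% and 11.4% over all genes tested). The block gave 0 and 0 in siCLOCK against control (0.0243% and 0.0487%), and 19 and 5 in melatonin against siCLOCK (7.07% and 9.43%). In that model ZNF726 (adjusted p = 0.0625) lost its call against control, and ZNF492 (adjusted p = 0.0599) its call against siCLOCK. With that block the family medians were 0.075, -0.020 and 0.081 in the same order. With gaps of 0.5 Mb the first members of the last block, ZNF628 to ZNF835, had a median of -0.09 in melatonin against control and -0.08 against siCLOCK, and ZNF264 to ZNF446 had 0.04 in siCLOCK against control. With gaps of 2 Mb, ZNF557 to ZNF791 had 0.13 and ZNF302 to ZNF573 had 0.06 in melatonin against control. Members with few counts have the widest SEs, and differences near the median SE of 0.12 were not detectable at this depth.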

Other observations

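Without the set term, base composition and position of the members went with the values of siCLOCK against control more than with those of melatonin against control. Over the 229 tested members, which share libraries and lie in blocks, Spearman's rho with the log2 fold change of siCLOCK against control was 0.23 for the start position, 0.22 for transcript GC content and -0.07 for the number of fingers. In melatonin against control the values were -0.03 for start position, -0.04 for GC content and 0.21 for fingers. With the set term GC content stood at 0.31 in melatonin against control and at 0.38 in siCLOCK against control. Start position then stood at 0.04 and 0.24. Over all genes tested, without that term, GC content gave -0.12 in melatonin against control and 0.01 in siCLOCK against control. For the members in melatonin against control, the level per kb in control gave -0.18 without the set term and -0.00 with it. These are descriptions over genes that are not independent of each other.

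Of the 54 tested members that share over 10% of their exon bases with another gene, 1 was higher (1.85%) and 2 lower (3.7%) in melatonin against control. Of the other 175, 12 were higher (6.86%) and 9 lower (5.14%), against 11.0% and 12.1% of all genes tested. The median log2 fold changes were 0.02 and 0.09. Reads over more than 1 gene count for no gene, so the first group loses counts by construction. The difference between the groups was not tested.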
